A study of Mus musculus with 4 samples.

Results

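Intermediate filaments other than keratins were examined in developing mouse molars through 9 genes: Vim, Des, Gfap, Prph, Nes, Nefl, Nefm, Nefh and Ina. They were found by taking every probe set that the platform annotation assigns to exactly 1 of these symbols. All 9 genes were found, with 22 probe sets among 45101 in the table and 9 genes among 18193 that are named alone by a probe set. The material was 1 pool of whole molars from 60 untreated Swiss Webster pups of both sexes, aged between 1 and 10 days, and its RNA was hybridised to 4 Affymetrix Mouse Genome 430 2.0 arrays. The arrays repeat 1 pool of teeth of different ages, so each SD below is technical, no age or animal can be separated, and p-values measure the spread between arrays only. The study set these arrays against control tissues that were not analysed here.

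Intermediate filaments are rope-like polymers that give a cell its mechanical strength, and each cell lineage builds them from its own subunits. Vimentin (Vim) is the subunit of mesenchymal cells such as the dental pulp and the odontoblasts, the cells that lay down dentin. Nestin (Nes) is a very long subunit that assembles with vimentin, is known from progenitor cells, and in teeth is widely used as an odontoblast marker. Desmin (Des) belongs to muscle and some vessel-wall cells, and the glial fibrillary acidic protein (Gfap) to astrocytes and some Schwann cells. The neurofilament light, medium and heavy chains (Nefl, Nefm, Nefh), peripherin (Prph) and alpha-internexin (Ina) form the filaments of axons. The nerve cells that supply teeth have their cell bodies in the trigeminal ganglion, outside the extracted tissue.

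Of the 9 genes, Vim and Nes gave a signal above background and 7 did not. Probe sets for olfactory, vomeronasal and taste receptor genes, 86 in all, served as the background set, and their 95th percentile was the threshold of an array. It came to 1163 ± 142 signal units (SD, n = 4 arrays) and ranged from 996 to 1295. Above background means higher than the threshold on each of the 4 arrays, for a gene by any of its probe sets. This held for 2 of 9 genes, beside 51.6% of all genes, and for 5 of 22 probe sets, beside 35.8% of the 45037 that are not controls. The median log2 signal of the 9 genes, each by its brightest probe set, was 9.30, and that of all genes was 10.69. A limma test (one-sided) that the log2 ratio of signal to threshold was above 0, adjusted by Benjamini-Hochberg over all 45037 probe sets, also called 5 of the 22, beside 35.2% of all. By the mean log2 signal of the brightest probe set, Vim was brighter than Nes and Nes than Des, with no overlap between these neighbours over the arrays. The brightest Des and Ina probe sets did not overlap either, but on array 4 both lay below the threshold and have no order there. Ina, Prph, Nefl, Nefh, Nefm and Gfap overlapped with their neighbours, lay within background and have no order among them.

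**Figure D1:**
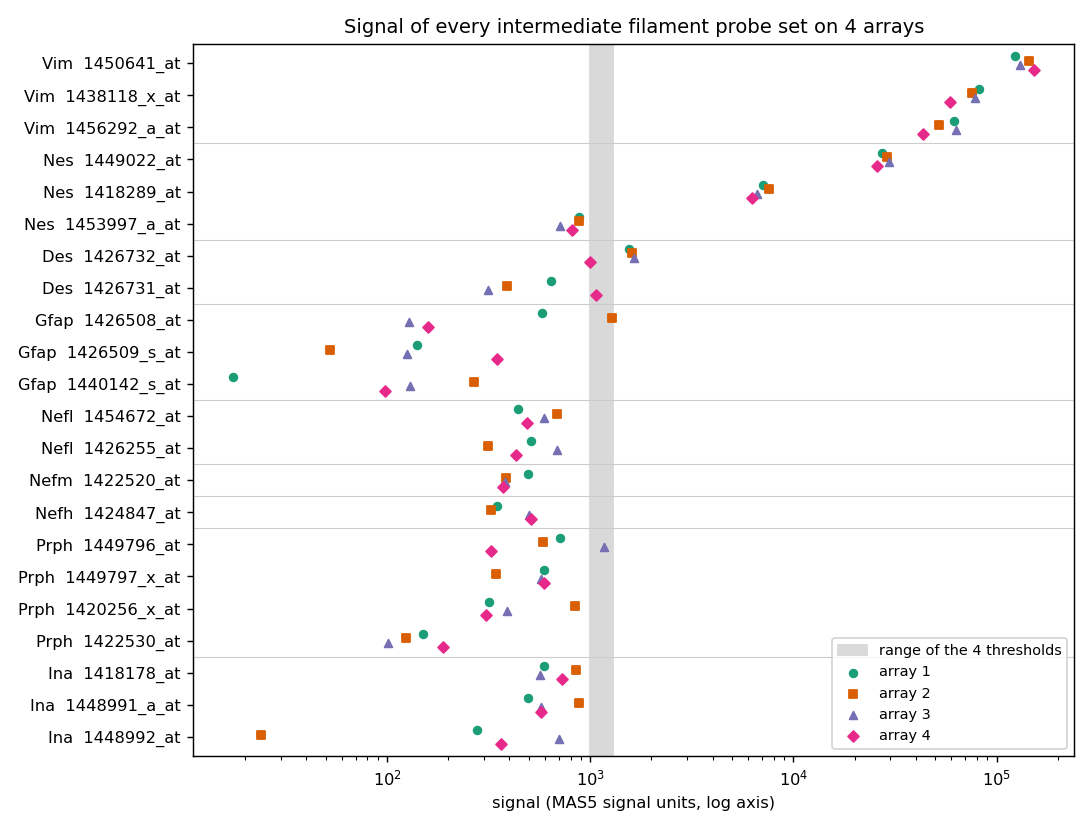
Signal in MAS5 units (log axis) of all 22 probe sets of the 9 genes, with 1 point per array and the range of the 4 background thresholds as a grey band. The 3 Vim and 2 of the Nes probe sets lie to the right of the band on every array, 1 Des probe set lies around it, and the others lie mostly to its left.

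The regions just before the starts of Vim, Nes and Des are shown because these are the 2 genes above background and the 1 gene at its edge. RefSeq windows (GRCm38.p6, the reference mouse and not these animals) were matched for 6 of the 9 genes. Each line gives the last 120 bases before the start, with capitals marking TATA boxes (TATAAA) and GC boxes (GGGCGG), searched on both strands.
Vim: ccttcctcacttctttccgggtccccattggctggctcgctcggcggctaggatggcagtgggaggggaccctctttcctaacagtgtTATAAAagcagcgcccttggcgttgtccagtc
Nes: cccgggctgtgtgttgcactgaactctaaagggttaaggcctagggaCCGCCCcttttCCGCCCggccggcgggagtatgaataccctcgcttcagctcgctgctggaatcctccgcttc
Des: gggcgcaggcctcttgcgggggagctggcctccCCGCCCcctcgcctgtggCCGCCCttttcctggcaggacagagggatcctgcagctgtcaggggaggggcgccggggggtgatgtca
The Vim window is chr2:13574191-13574310, the Nes window chr3:87970973-87971092 and the Des window chr1:75360172-75360291, all on the plus strand. Vim had a TATA box beginning 32 bases before its start and no GC box in the 250 bases before it. Nes and Des had no TATA box there and 2 GC boxes each, in Nes at 73 and 62 bases and in Des at 87 and 69 bases before the start. E-boxes (CANNTG) numbered 2 in Des and 0 in Vim and Nes. The other matched genes, Prph, Ina and Gfap, were not above background. Prph had 1 TATA box, beginning 31 bases before its start, and 1 GC box. Ina had 2 GC boxes and 1 E-box, and Gfap had 0 of each motif. TATA boxes and GC boxes were thus not particular to the genes above background, and their part in the signals was not tested. Among 32851 RefSeq windows of the same 250 bases, 12.4% held a TATA box, 32.7% a GC box and 66.2% an E-box.

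Vim was the brightest of the 9 genes. Its probe set 1450641_at gave 123858, 144983, 130085 and 153618 signal units on arrays 1 to 4, a mean of 138136 ± 13605 (SD, n = 4). That is brighter than 99.9% of all probe sets and 119 times the threshold. The other Vim probe sets, 1438118_x_at and 1456292_a_at, gave 73673 ± 10382 and 55038 ± 9047, and their lowest values of 58696 and 43528 were 46.4 and 34.4 times the threshold of that array. All 12 Vim values thus stood far above background, and limma's adjusted p-values ran from 1.86e-15 to 6.07e-15. Signals of different probe sets also depend on how well each probe binds, so no order here is one of mRNA amounts.

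The Vim probe sets did not vary in step between arrays. On array 4, 1450641_at had its highest value while 1438118_x_at, at 58696 against 75306 to 82262 on the other arrays, and 1456292_a_at, at 43528 against 52162 to 63033, had their lowest. The ratio of 1450641_at to 1438118_x_at was 2.62 on array 4 and 1.51, 1.93 and 1.66 on arrays 1, 2 and 3. After quantile normalisation it was 2.46 on array 4 and 1.62 to 1.84 on the others. The suffixes _x_at and _a_at mark probes shared between transcripts, and these 2 probe sets are annotated to 1 source sequence, so they do not count as independent readings. The SDs of their log2 signals were 0.22 and 0.25, and the median SD of the 500 probe sets nearest in brightness was 0.12 for each.

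Nes was above background by 2 of its 3 probe sets. Probe set 1449022_at gave 27236, 29004, 29485 and 25655 on arrays 1 to 4, a mean of 27845 ± 1751 (SD, n = 4), which is 24.0 times the threshold and brighter than 97.9% of probe sets. Probe set 1418289_at gave 7066, 7618, 6606 and 6256, a mean of 6887 ± 590 and 5.94 times the threshold. Both were lowest on array 4, yet their highest value exceeded their lowest by only 1.15 and 1.22 times. The limma adjusted p-values were 6.27e-15 and 1.66e-11.

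The remaining Nes probe set was not above background. Probe set 1453997_a_at gave 884, 883, 712 and 810, below the threshold on all 4 arrays, although its values repeated closely with an SD of 0.15 on the log2 scale. It carries only an upper bound, so no fold between it and the other Nes probe sets is given. The part of the transcript that each probe set reads was not analysed here, and the source of the difference was not tested.

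Des lay at the edge of background. Its probe set 1426732_at gave 1543, 1600, 1635 and 992 on arrays 1 to 4, a mean of 1442 ± 303 (SD, n = 4), against thresholds of 996, 1097, 1295 and 1266. It passed on 3 arrays and fell short on array 4, and limma gave an adjusted p of 0.240 for a level 1.22 times the threshold. Without array 4 (54.1% of all genes called), or with a pass on at least 3 arrays (55.9%), Des counted as above background. Its other probe set, 1426731_at, gave 641, 388, 315 and 1073 and passed on 0 arrays. By mean log2 signal, 0 of the 86 receptor probe sets were brighter than 1426732_at, and 16 were brighter than 1426731_at. On array 4 both Des probe sets lay below the threshold, so they have no order there.

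**Figure D2:**
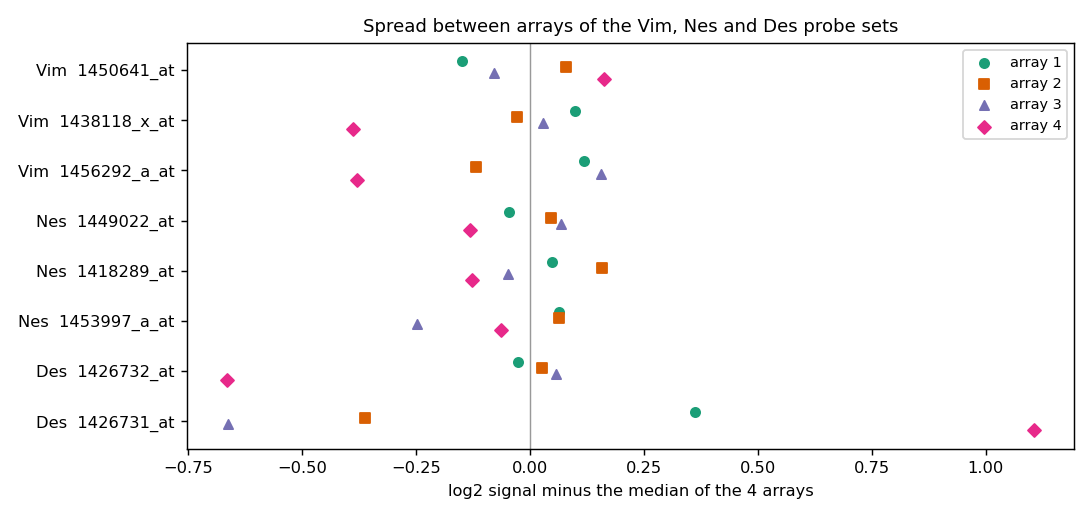
Log2 signal minus the median of the 4 arrays for the Vim, Nes and Des probe sets, with 1 point per array. Array 4 is the lowest for 5 of the 8 probe sets and the highest for Vim 1450641_at and Des 1426731_at, at 0.16 and 1.11 above the median.

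Markers of the cells known for desmin were measured on the same arrays. Of 15 skeletal muscle genes 11 were above background (73.3%, beside 51.6% of all genes), among them Acta1, the actin of skeletal muscle, at 20889 ± 1385 and Myl1, a myosin light chain, at 13824 ± 2129. Actn3, an actinin of fast fibres, had 849 ± 195 and Chrna1, a subunit of the muscle acetylcholine receptor, 290 ± 251, and neither passed. The brightest probe sets of the muscle list summed to between 74226 and 84476 on an array. By probe sets without shared-sequence suffixes the count was 7 of 12, beside 46.6% of all genes so measured. Of 11 smooth muscle and pericyte genes 9 were above background (81.8%, beside the same 51.6%), with Acta2, the actin of smooth muscle, at 29157 ± 1468 and Rgs5, a pericyte gene, at 25111 ± 651. Cnn1 (calponin) and Myh11, the myosin of mature smooth muscle, had 83.8 ± 30.9 and 653 ± 347 and passed on 0 arrays. The part of these cells in the Des signal was not tested.

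None of the axonal filament genes was above background, beside 51.6% of all genes, nor any of their 11 probe sets, beside 35.8% of all. Across their 11 probe sets and 4 arrays, 0 of 44 values exceeded the threshold of the array, and the values ran from 23.8 to 1172. The limma test called 0 of the 11 after adjustment, beside 35.2% of all probe sets, and 0 at an unadjusted p under 0.05. By mean log2 signal, each of the 11 was outshone by between 9 and 49 of the 86 receptor probe sets, so they lay inside the background set and their values carry no order. A value in this range leaves a low level undetected rather than shown to be absent, and in whole teeth fewer cells of a type and less RNA per cell cannot be told apart.

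The neurofilament chains gave 4 of these probe sets. For Nefl, the light chain on which the others assemble, 1454672_at gave 438, 685, 594 and 488 (551 ± 110, SD, n = 4) and 1426255_at gave 508, 315, 689 and 429 (485 ± 157). For Nefm, the medium chain, 1422520_at gave 496, 383, 381 and 370 (408 ± 59.3). For Nefh, the heavy chain that sets axon calibre with Nefm, 1424847_at gave 348, 324, 499 and 513 (421 ± 98.7). All 3 genes lay between 0.350 and 0.470 times the threshold, and the ranges of neighbours in that order overlapped.

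Peripherin and alpha-internexin also stayed below the threshold on every array. Prph, the filament of small sensory and autonomic neurons, had 4 probe sets with means from 141 to 697, and the highest single value was 1172 on array 3, where the threshold was 1295. Ina, an early neuronal filament, had means of 685 ± 132, 630 ± 173 and 340 ± 279 for 1418178_at, 1448991_a_at and 1448992_at. The last of these ranged from 23.8 on array 2 to 699 on array 3, the widest log2 spread of any of the 22 probe sets (SD 2.13). With the threshold lowered to the 75th percentile of the receptor probe sets, at which 65.3% of all genes were called, 4 of the 9 genes passed, Des and Ina in addition to Vim and Nes. At the 99th percentile (48.2% of all genes) the count was 2 of 9.

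**Figure D3:**
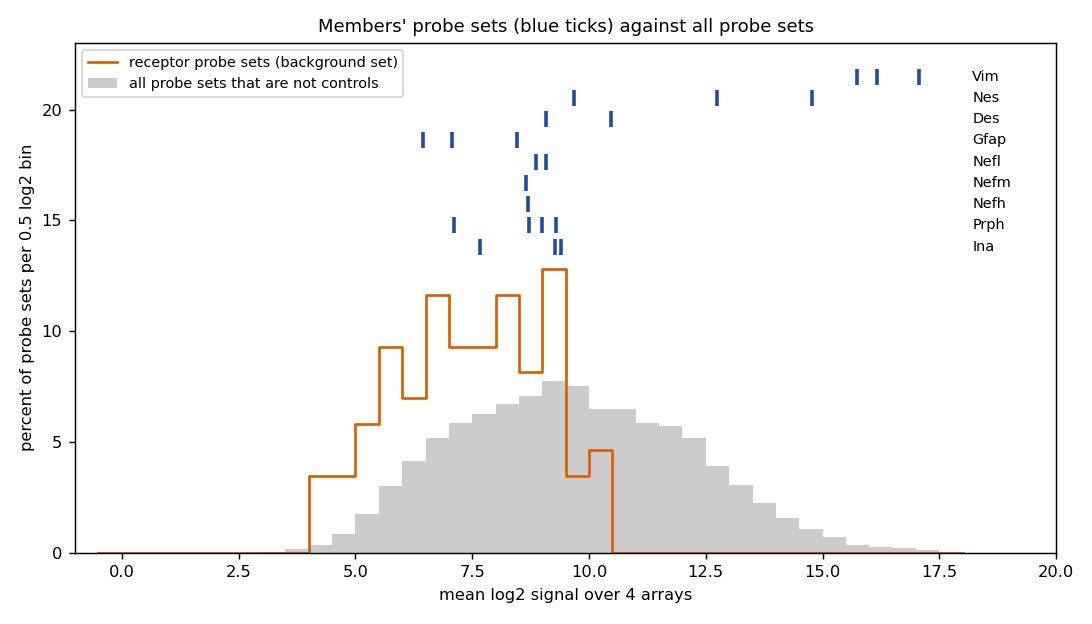
Mean log2 signal over 4 arrays of all 45037 probe sets that are not controls (grey bars) and of the 86 receptor probe sets (orange line), in percent per 0.5 log2 bin, with the 22 probe sets of the 9 genes as blue ticks. All Vim and 2 Nes ticks lie to the right of the receptor set, and those of Gfap, Nefl, Nefm, Nefh, Prph and Ina lie within it. The brighter Des tick lies at the upper edge of the receptor set.

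Other nerve genes were measured on the same arrays. Of 17 neuron markers, 7 were above background (41.2%, beside 51.6% of all genes), and limma called 6, beside 50.9%. Stmn2, a microtubule regulator of growing axons, had 5174 ± 508 and Mapt, the microtubule protein tau, 3551 ± 549. Elavl4, a neuronal RNA-binding protein, and Eno2, the neuronal enolase, had 583 ± 114 and 714 ± 165 and passed on 0 arrays. The summed signal of the list ran from 25806 to 28275 over the arrays. The neuron list held genes on both sides of the threshold, as the set of all genes did. The 5 axonal filament genes were all below it, and no contrast between them and the list was tested. Whether these signals came from axons or from other cells was not tested.

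Gfap was not above background. Its probe sets 1426508_at, 1426509_s_at and 1440142_s_at had means of 536 ± 535, 166 ± 127 and 128 ± 104 (SD, n = 4), and 1 of 12 values passed, 1275 on array 2 for 1426508_at. The other arrays gave 582, 128 and 159 for that probe set, so the single pass was not repeated. Of 10 measured Schwann cell and glia markers 6 were above background, a share (60.0%) near the 51.6% of all genes. The brightest were Pmp22, a protein of peripheral myelin that other tissues also make, at 29524 ± 1595 and Mbp, the myelin basic protein, at 4957 ± 881. Cdh19, a Schwann cell precursor cadherin, and Egr2, the regulator of myelination, had 374 ± 147 and 169 ± 128 and passed on 0 arrays.

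Markers of other cells in which nestin or vimentin occur were measured as well. Of 7 odontoblast markers 6 passed (85.7%, beside 51.6% of all genes), led by the type I collagen genes Col1a2 and Col1a1 at 195252 ± 30587 and 179786 ± 33243, which bone also makes. Dspp, the source of the main non-collagen proteins of dentin and named after its values were seen, had 111371 ± 20102. Mepe, a matrix phosphoglycoprotein, had 661 ± 336 and did not pass. Of 10 endothelial markers 9 passed (90.0%, beside the same 51.6%), with Ramp2, a co-receptor for adrenomedullin, at 10168 ± 648 and the secreted vessel factor Egfl7 at 7975 ± 377. Flt1, a VEGF receptor, had 1344 ± 300 and passed on 3 arrays. The summed signals were 460551 to 646375 for the odontoblast list and 42491 to 46353 for the endothelial list. These sums are not set against each other, since the lists differ in size and probe sets differ in binding. The pool does not separate these cells, and their part in the Nes and Vim signals was not tested.

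Other genes of the intermediate filament system were measured too. Of 7 other non-keratin filament genes 4 passed, or 57.1%, near the 51.6% of all genes. These were the nuclear lamina genes Lmna at 10442 ± 1259 and Lmnb1 at 10283 ± 1937, and 2 genes named after their values were seen, Synm (synemin) at 1945 ± 355 and Sync (syncoilin) at 1778 ± 207. Synm and Sync encode partners of desmin and vimentin in muscle and other cells. Bfsp1 and Bfsp2, the filaments of the eye lens, had 490 ± 91.9 and 391 ± 328 and passed on 0 arrays. Lmnb2, another nuclear lamina gene, also named after its values were seen, had 742 ± 275 and passed on 1 array. Of 7 measured linkers and chaperones 6 passed (85.7%, beside the same 51.6%), with Hspb1, a small heat shock protein, at 50862 ± 7331 and plectin (Plec), the cytolinker that ties filaments to junctions and actin, at 29065 ± 3926. Cryab, the small heat shock protein that guards desmin, had 1021 ± 192 and passed on 2 arrays.

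**Figure D4:**
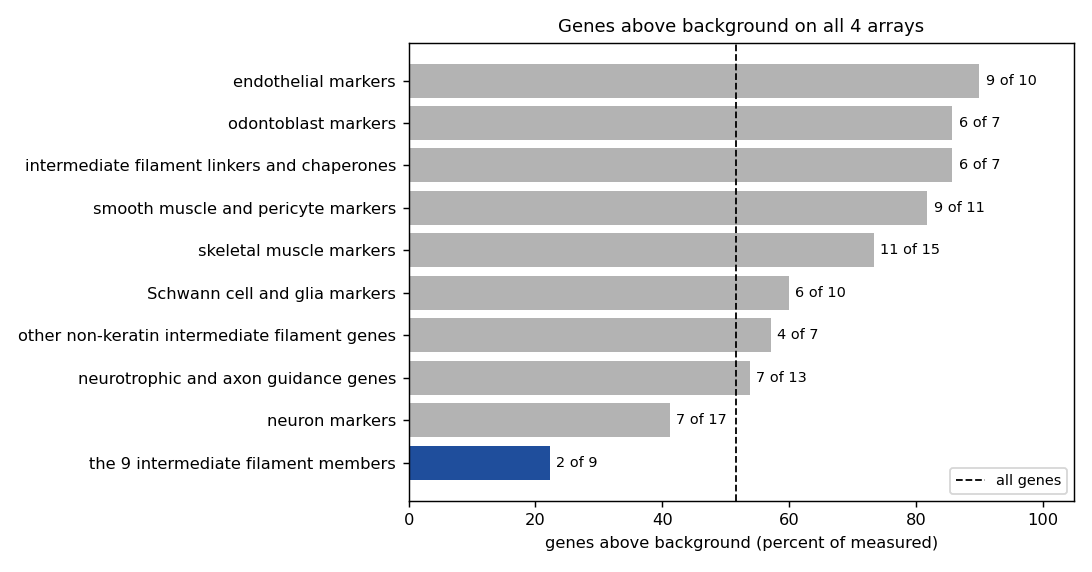
Percent of measured genes above background on all 4 arrays for the 9 intermediate filament genes (blue) and for 9 other gene lists (grey), with the count beside each bar and a dashed line at the 51.6% of all genes. The 9 genes stand at 2 of 9, and the neuron list at 7 of 17 lies below the line too.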

How the data were processed

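The values the authors deposited are linear signal intensities, 1 for each probe set on each array, made with MAS5 per the submitters' processing notes. MAS5 summarises probes that match a transcript and corrects them by probes with 1 mismatch. No version, setting or detection call is given in the sources used here. On each array the mean without the lowest and highest 2% of signals came to 2500, so the arrays share a scale. Low MAS5 signals are noisy: the median SD of log2 signal was 0.17 for probe sets above background and 0.68 for the others. Between pairs of arrays, Pearson's r across probe sets above background was 0.970 to 0.980 (6 pairs). The number of arrays limits the precision.

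Names came from the platform annotation, in which 34945 probe sets name 1 gene, 932 several (not used) and 9160 none, beside 64 controls. All 22 member probe sets matched the RefSeq gene table. The probe set with the highest mean log2 signal stood for its gene. Members and lists were chosen with earlier results of these data known. All 9 members are named, and from each list the 2 brightest genes above background and up to 2 others in alphabetical order. Of the listed genes, those with no probe set naming them alone were not analysed. limma 3.58.1 (R 4.3.3) was run with a mean-variance trend. On simulated data for 45037 probe sets, the all-array rule called 84% of 50 set 1.5-fold above the threshold and 100% at 2-fold, and limma 4% and 96%. The simulation set 44837 probe sets at 0.5 times the threshold, whereas limma called 35.2% of all probe sets in the data. The Benjamini-Hochberg adjustment is harsher where so few lie above, so limma's simulated shares do not carry over to these arrays. Also tried were thresholds at the 99th and 75th percentile, a pass on 3 of 4 arrays, limma, quantile normalisation, probe sets without suffixes, the median probe set and leaving out each array.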

Additional observations from a re-analysis of the deposited data

Results flagged for a closer look

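A gap test asked, for each of the 22 probe sets, whether 1 array lay apart from the other 3 (the ratio of the gap to the whole range above Dixon's critical value). It picked out 4, where the nominal rate for independent, normally distributed values is about 1 in 20, or 1.1 of 22. The signals were used on the linear scale and some probe sets share a gene, so 4 measures no excess over chance. Des 1426732_at was low on array 4, at 992 against 1543 to 1635 (ratio 0.857). Nefm 1422520_at was high on array 1, at 496 against 370 to 383 (0.902). Prph 1420256_x_at was high on array 2, at 840 against 306 to 387 (0.848), and Prph 1449797_x_at was low on array 2, at 342 against 574 to 595 (0.919). The Nefm and Prph values all lay below the threshold.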

How the results depend on the processing

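Vim and Nes were above background under all 11 alternatives, and Gfap, Nefl, Nefm, Nefh and Prph under none. Des passed under 3 and Ina under 1. At the 75th percentile of the receptor probe sets the member count was 9 of 22 probe sets (50.3% of all) and 4 of 9 genes (65.3% of all), with Ina at a mean log2(signal / threshold) of 0.44 against -0.78 at the 95th percentile. By probe sets without suffixes 3 of the 14 left were above background (30.3% of all such probe sets), fewer by construction. Leaving out each array gave 5 to 6 probe sets (36.0% to 38.2% of all) and 2 to 3 genes (51.8% to 54.1% of all). With the median over each gene's probe sets, the levels were 6887 for Nes, 73673 for Vim and 1023 for Des. No paired analysis was possible because all 4 arrays form 1 group. Signal over background limits the calls near the threshold: of simulated probe sets set 1.5-fold above it, the all-array rule called 84%. The limma share of 4% came from a simulation with far fewer probe sets above the threshold than the data and does not carry over.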

Other observations

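Genes that guide nerves into teeth were measured on the same arrays. Of 13 measured neurotrophic and axon guidance genes 7 were above background, beside 51.6% of all genes, and 3 of 13 by the median probe set of each gene, beside 42.7%. Nrp1, the semaphorin co-receptor, had a signal of 8722 ± 677 (SD, n = 4) and Ntrk2, the receptor for brain-derived neurotrophic factor, 7864 ± 603. Artn (artemin) and Bdnf had 109 ± 32.1 and 856 ± 435 and were not above background.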
